A study of Sus scrofa with 8 samples.

Results

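The 9 genes described here are hypoxia-inducible signalling genes: VEGFA, ADM, SLC2A1, CA9, EGLN3, NDRG1, HIF1A, EPAS1 and BNIP3. They were taken by gene name from a deposited table of 25578 pig (Sus scrofa) genes, each name matching 1 entry, and all 9 were among the 19346 genes tested. The samples were pluripotent stem cells (PSC), the definitive endoderm (DE) and then anterior foregut endoderm (AFE) made from them, and lung progenitor organoids (LPO), with 2 messenger RNA libraries per stage, 8 in all. The labels give only the stage and a replicate number for each library. The cell line, culture medium, days in culture and oxygen level are not known here, nor whether a stage's libraries were separate cultures. The p-values therefore rest on the spread of these libraries alone, and that spread may be technical.

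Cells answer low oxygen through hypoxia-inducible factors (HIF), each a pair of an oxygen-sensitive alpha subunit and the stable partner ARNT. In the presence of oxygen, prolyl hydroxylases (the EGLN enzymes) mark the alpha subunit for destruction by the VHL ubiquitin ligase. Oxygen thus acts mainly on the HIF protein, and the transcripts of HIF1A and EPAS1 are inputs to the pathway, while those of VEGFA, ADM, SLC2A1, CA9, EGLN3, NDRG1 and BNIP3 are among its classical outputs. Several of these outputs also answer to growth factors and metabolic signals. In the embryonic lung, VEGFA from the epithelium is known for guiding the growth of the capillary bed.

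Deposited counts summed to 36004372 and 42251431 in the PSC libraries and to 61748702 to 67566269 in the others. About 4 counts were taken as 1 read pair, although only 46.4% to 50.7% of counts from 1 to 12 in a library were multiples of 4. Changes between stages are given on counts per 1e6 counts after TMM scaling (CPM, mean ± SD, n = 2). Levels of different genes are compared in FPKM, the authors' value per transcript length and per library. The exception is the sums of marker genes, which are in CPM and so not corrected for transcript length. The TMM factors were 1.26 and 1.27 in LPO and 0.901 to 0.954 elsewhere, so a ratio of LPO to an earlier stage is larger in FPKM than in CPM. Adjusted p-values come from edgeR's quasi-likelihood test with Benjamini-Hochberg adjustment over all 19346 genes, and a gene was called below 0.05. For 2 libraries against 2, the smallest p of an exact permutation test would be 0.333.

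The stage labels were set beside markers of each stage, not all of which went with them. The pluripotency factor POU5F1 stood at 4450 and 5160 CPM in PSC and at 390 and 383 in DE. NANOG, PRDM14 and DNMT3B were also highest in PSC. SOX2 was instead highest in LPO (30.3 and 30.7 CPM, 6.1 and 4.43 in PSC), and LIN28A in DE (41.4 and 29.5 CPM). The endoderm factor SOX17 had 251 and 228 CPM in DE. FOXA2, GATA4, GATA6 and HHEX were also highest in DE, but FOXA1 was higher in AFE and LPO. The lung and thyroid factor NKX2-1 had 20.2 and 19.5 CPM in AFE and 33.7 and 34.2 in LPO. SOX9 was also highest in LPO, but IRX3, TBX1 and SFTPB were lower there than in AFE. The alveolar product SFTPC reached only 0.262 and 0.441 CPM in LPO. The summed level of 7 mesenchymal markers was 11.3 to 12.1 CPM in PSC, 126 to 258 in DE, 297 to 300 in AFE and 4990 to 5090 in LPO, with none at 0 in both libraries after PSC. COL1A1 (1560 and 1610 CPM) and COL3A1 (2920 and 2950) made up most of it in LPO. PDGFRB, TWIST1 and PRRX1 were also highest there. PDGFRA was near its DE level (72.8 and 59.5 CPM in DE, 73.9 and 81.9 in LPO). ACTA2 was lower in LPO (7.41 and 7.73 CPM) than in AFE (41.1 and 42). The sum of 8 endothelial markers was 18.0 to 19.0 CPM in PSC, where 4 were at 0, then 75.1 to 116 in DE, 30.9 to 34.4 in AFE and 54.9 to 57.1 in LPO. KDR and TIE1 made up most of it in DE, AFE and LPO. KDR alone had 79.9 and 43.3 CPM in DE, 7.2 and 6.8 in AFE, and 33.9 and 29.9 in LPO. CDH5, VWF and CLDN5 were lower in LPO than in AFE, and ERG was higher. The sum of 5 epithelial markers was 4930 to 5060 CPM in PSC, 51800 to 56200 in DE, 29300 to 30200 in AFE and 4330 to 4520 in LPO. KRT8, KRT18 and KRT19 made up most of it in DE, whereas CDH1 was lower in DE (393 and 412 CPM) than in PSC (676 and 688), and EPCAM had 437 and 514 CPM in DE and 389 and 402 in PSC. The part of these cell types in the results was not tested. In bulk RNA, a change in the share of a cell type and a change in RNA per cell cannot be told apart.

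Of the 9 genes, 8 were higher in LPO than in PSC and 1, CA9, was lower, where 41.5% and 28.8% of all genes tested were called higher and lower. Between these ends the genes did not move together. VEGFA, ADM, SLC2A1 and BNIP3 rose into DE, fell into AFE and rose again into LPO. NDRG1 was higher at each step. EGLN3 fell into DE and then rose at both later steps. CA9 moved against VEGFA at all 3 steps, falling into DE, rising into AFE and falling into LPO. HIF1A was not called between PSC and DE, and EPAS1 was not called between DE and AFE. Neighbouring steps share the libraries of the stage between them, so a high or low DE library moves both.

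**Figure D1:**
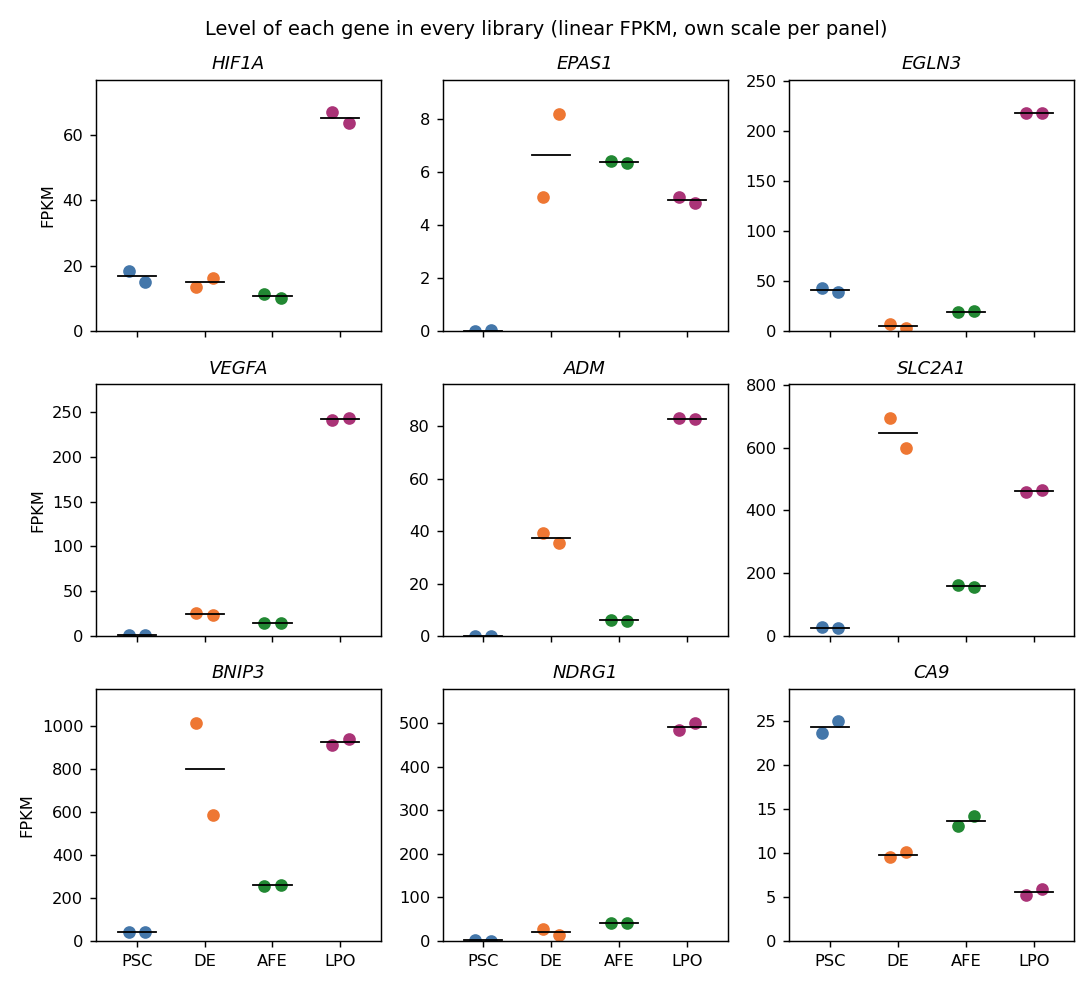
FPKM (linear axis from 0, a separate scale in each panel) of the 9 genes in each of the 8 libraries; points are libraries, with replicate 1 on the left, and the black bar is the mean of the 2 libraries of a stage. CA9 is highest in PSC (23.6 and 24.99 FPKM) and lowest in LPO (5.24 and 5.88 FPKM), whereas VEGFA, ADM, EGLN3, NDRG1 and HIF1A are highest in LPO.

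HIF1A, the widely expressed alpha subunit (gene ENSSSCG00000005096, chromosome 1, 190625244 to 190674845, plus strand; the files' build is not named in the sources), was present at every stage. Its counts were 3203 and 2234 in PSC, 3513 and 4144 in DE, 3231 and 2786 in AFE, and 17545 and 16534 in LPO. The FPKM values were 18.53 and 15.09, 13.66 and 16.30, 11.48 and 10.07, and 67.04 and 63.51. Both LPO libraries lay above the 6 others, both AFE libraries lay below them, and those of PSC and DE overlapped. HIF1A was 4.30-fold higher in LPO than in AFE (213.5 ± 7.53 against 49.6 ± 4.44 CPM, log2 change 2.11 with SE 0.128, adjusted p = 3.9e-06). Between PSC and DE the log2 change was -0.13 (SE 0.124, adjusted p = 0.42). The fall from DE to AFE was small (1.34-fold, adjusted p = 0.031) and its call ended without DE replicate 2 (log2 change -0.31), AFE replicate 1 (-0.52), AFE replicate 2 (-0.34) or LPO replicate 2 (-0.43), and with unfiltered FPKM (-0.44).

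EPAS1, which encodes HIF-2 alpha, a subunit known from endothelium and lung (ENSSSCG00000008443, chromosome 3, 94165816 to 94254079, minus strand), was, like ADM, almost absent from PSC. Its counts were 0 and 8 in PSC, 1741 and 2788 in DE, 2419 and 2348 in AFE, and 1775 and 1677 in LPO. The FPKM values were 0 and 0.04, 5.06 and 8.21, 6.43 and 6.35, and 5.07 and 4.82. The 2 PSC libraries held 2 read pairs together, and the 6 later libraries lay between 4.82 and 8.21 FPKM. With so few reads, the ratio of DE to PSC was 365 (95% counting interval 101 to 3010, counting error only, adjusted p = 9e-06), and that of LPO to PSC was 200 (interval 55.2 to 1650, adjusted p = 7.3e-06).

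Unlike HIF1A, EPAS1 was not higher in LPO than in AFE. It was 1.82-fold lower on TMM-scaled counts (21.6 ± 0.724 against 39.3 ± 0.235 CPM, adjusted p = 0.045). Of 19 alternative settings, 9 kept this call. That call ended without either AFE or either LPO library (log2 change -0.91 to -0.85), with DESeq2 size factors (-0.80), with library totals (-0.38) and with FPKM (-0.36 to -0.31), and on the TPM scale the change was 0.05. The FPKM ratio of HIF1A to EPAS1 was 2.70 and 1.99 in DE, 1.79 and 1.59 in AFE, and 13.2 in each LPO library. The balance of the alpha subunit transcripts thus lay further towards HIF1A in both LPO libraries than in any DE or AFE library. In PSC no ratio is given, because EPAS1 was at the limit of counting.

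EGLN3, the prolyl hydroxylase whose own gene is a HIF target (ENSSSCG00000001963, chromosome 7, 65805522 to 65833529, plus strand), ran against most of the outputs at the first step. Its counts were 6122 and 4759 in PSC, 1638 and 795 in DE, 4415 and 4606 in AFE, and 46395 and 46173 in LPO. Per length, its FPKM stood at 43.52 and 39.49, 7.82 and 3.84, 19.27 and 20.45, and 217.8 and 217.89. No stages overlapped, and the order was LPO, PSC, AFE, DE. EGLN3 fell 6.94-fold into DE (146.6 ± 7.40 to 21.1 ± 10.2 CPM, log2 change -2.79 with SE 0.28, adjusted p = 8e-05), and rose 3.52-fold into AFE (adjusted p = 0.0016) and 7.79-fold into LPO (adjusted p = 4e-05). The size of the steps at DE depended on the library: the fall was -3.39 on the log2 scale without DE replicate 1 and -2.39 without DE replicate 2, and the rise into AFE was 2.42 and 1.38.

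VEGFA, the main angiogenic ligand (ENSSSCG00000001695, chromosome 7, 38746475 to 38761366, plus strand), was low in PSC and abundant in LPO. Its counts were 126 and 101 in PSC, 4729 and 4211 in DE, 3014 and 2835 in AFE, and 44398 and 44492 in LPO. In FPKM these were 1.03 and 0.97, 26.13 and 23.53, 15.21 and 14.56, and 241.23 and 243.02. No stage overlapped another. VEGFA stood above 45.8% and 45.9% of the genes tested in the PSC libraries and above 99.1% in each LPO library. The 25.4-fold rise into DE (adjusted p = 6.4e-08) was followed by a 1.61-fold fall into AFE (77.8 ± 5.66 to 48.2 ± 1.36 CPM, adjusted p = 0.00027). The rise from AFE to LPO was 11.5-fold (to 556.8 ± 4.55 CPM, log2 change 3.53 with SE 0.0785, adjusted p = 1.5e-07).

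ADM, the vasodilator peptide adrenomedullin (ENSSSCG00000013408, chromosome 2, 49229223 to 49231866, minus strand), shared the order of VEGFA but fell further at AFE. Its counts were 10 and 13 in PSC, 4702 and 4208 in DE, 825 and 736 in AFE, and 10150 and 10073 in LPO. As FPKM it had 0.11 and 0.17, 39.14 and 35.44, 6.27 and 5.69, and 83.06 and 82.86. In PSC it lay near the floor, set at 12 counts or 3 read pairs in a library, so the folds against PSC are imprecise. ADM fell 6.02-fold from DE to AFE (77.5 ± 5.37 to 12.9 ± 0.844 CPM, adjusted p = 5.1e-06) and rose 9.84-fold from AFE to LPO (to 126.7 ± 0.163 CPM, adjusted p = 4e-07). LPO exceeded DE by 1.63 times in CPM and 2.22 times in FPKM, with no overlap of libraries.

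SLC2A1, the basal glucose transporter GLUT1 (ENSSSCG00000059879, chromosome 6, 168535440 to 168560867, plus strand), peaked in DE rather than in LPO. Its counts were 2931 and 2163 in PSC, 102568 and 87573 in DE, 26259 and 24920 in AFE, and 68705 and 69334 in LPO. In FPKM these were 29.54 and 25.44, 694.49 and 599.89, 162.52 and 156.83, and 457.25 and 463.85. Both DE libraries lay above both LPO libraries on either scale, by 1.91 times in mean CPM and 1.41 times in mean FPKM. SLC2A1 fell 3.92-fold into AFE (1654 ± 169 to 422.0 ± 9.25 CPM, adjusted p = 5.7e-06) and rose 2.05-fold into LPO (adjusted p = 2e-05).

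BNIP3, a mitochondrial membrane protein that recruits mitochondria for autophagy (ENSSSCG00000024388, chromosome 14, 140362127 to 140371907, minus strand), was the most abundant of the 9 in every DE, AFE and LPO library except DE replicate 2, where SLC2A1 was higher. Its counts were 2695 and 2317 in PSC, 95434 and 54582 in DE, 26382 and 26395 in AFE, and 86988 and 89198 in LPO. Its FPKM values were 42.72 and 42.87, 1016.27 and 588.03, 256.8 and 261.24, and 910.48 and 938.49. DE and LPO overlapped, and which had the higher mean depended on the scale: the ratio of DE to LPO was 1.18 in CPM and 0.868 in FPKM. BNIP3 rose 19.2-fold into DE (adjusted p = 4e-06), fell 2.99-fold into AFE (1303 ± 491 to 435.3 ± 6.72 CPM, adjusted p = 0.00094) and rose 2.54-fold into LPO (adjusted p = 0.00079). The log2 fall into AFE was -1.14 without DE replicate 1 and -1.94 without DE replicate 2.

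NDRG1, a stress-response gene induced during differentiation and by low oxygen (ENSSSCG00000005944, chromosome 4, 8027409 to 8069335, plus strand), was the only member whose mean was higher at each successive stage. Its counts were 204 and 92 in PSC, 5233 and 2585 in DE, 9015 and 8963 in AFE, and 98064 and 100939 in LPO. In FPKM these were 1.52 and 0.80, 26.24 and 13.11, 41.33 and 41.78, and 483.44 and 500.21. No stages overlapped, although the PSC libraries stood at 5.06 and 2.73 CPM and the DE libraries at 90.5 and 45.3 CPM. NDRG1 rose 17.2-fold into DE (adjusted p = 5e-05), and 8.41-fold from AFE to LPO (148.3 ± 1.63 to 1247 ± 33.8 CPM, adjusted p = 8.7e-05). The rise from DE to AFE was 2.18-fold (log2 change 1.13 with SE 0.310, adjusted p = 0.025). That call ended without DE replicate 2 (log2 change 0.70), without AFE replicate 1 (1.14) or replicate 2 (1.12), and with unfiltered FPKM (1.12).

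CA9, a cell-surface carbonic anhydrase that handles acid and is widely used as a marker of hypoxic tumour cells (ENSSSCG00000059309, chromosome 1, 236394306 to 236400822, plus strand), was the only output among the 9 to fall into LPO. At the earlier steps it was not alone: EGLN3 also fell into DE, and EGLN3 and NDRG1 also rose into AFE. Its counts were 1392 and 1262 in PSC, 838 and 872 in DE, 1249 and 1338 in AFE, and 468 and 523 in LPO. As FPKM it stood at 23.6 and 24.99, 9.54 and 10.05, 13.01 and 14.16, and 5.24 and 5.88. The stages did not overlap, and the order PSC, AFE, DE, LPO was that of VEGFA turned around. CA9 fell 2.42-fold into DE (adjusted p = 7.1e-05) and 3.44-fold from AFE to LPO (21.4 ± 1.36 to 6.21 ± 0.529 CPM, log2 change -1.78 with SE 0.127, adjusted p = 8.9e-06). The rise between them was 1.43-fold (adjusted p = 0.013), and its call ended without DE replicate 1 (log2 change 0.48) or AFE replicate 2 (0.45). LPO was 5.80-fold below PSC (log2 change -2.54 with SE 0.130, adjusted p = 9.7e-07), and the change stayed between -2.68 and -1.68 over 19 alternatives, below the threshold in all of them.

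**Figure D2:**
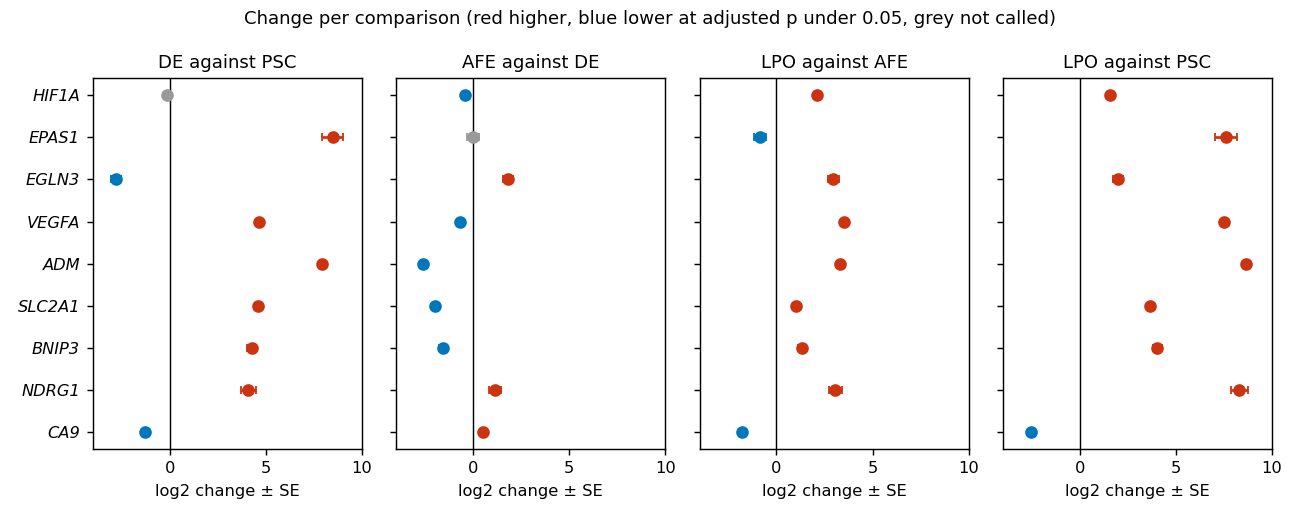
Log2 change (x axis, points) with its standard error (bars) for the 9 genes in 4 comparisons, from the edgeR quasi-likelihood model; red is called higher, blue called lower, grey not called. In LPO against PSC only CA9 lies below 0 (-2.54), and in LPO against AFE only CA9 (-1.78) and EPAS1 (-0.86) do.

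Counted together, 6 of the 9 genes rose and 2 fell from PSC to DE, where 30.8% and 23% of all genes tested were called higher and lower (53.8% in either direction). From DE to AFE 3 rose and 5 fell, beside 17.9% and 17.4% of all genes (35.3% in either direction). From AFE to LPO 7 rose and 2 fell, beside 30.2% and 29.6% (59.8% in either direction). From PSC to LPO all 9 were called, 8 of them higher, beside 70.3% of all genes in either direction. In these comparisons 8, 8, 9 and 9 members had no overlap between the libraries compared, beside 72.7%, 69%, 84.4% and 86.2% of all genes. The members' median log2 changes were 4.26, -0.43, 2.11 and 4.02, beside 0.08, 0.00, 0.09 and 0.49 for all genes tested. The scaling mattered for the background: of all calls in LPO against AFE, 50.5% were higher with TMM, 64.9% with library totals, 66.9% with limma on FPKM and 77.6% on the TPM scale. In AFE against DE the share was 50.7% with TMM and 39.9% with TPM, and in LPO against PSC 59% and 73.9%. Library totals moved the median of all genes from 0.09 to 0.58 in LPO against AFE and from 0.49 to 0.91 in LPO against PSC. With DESeq2 size factors, library totals or TPM, EPAS1 in LPO against AFE was the only member result whose call or direction changed.

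The 2 DE libraries differed for several of these genes by more than for most others. EGLN3 was 2.03-fold, NDRG1 2.00-fold and BNIP3 1.73-fold higher in DE replicate 1, and EPAS1 was 1.62-fold higher in DE replicate 2. Of 6969 genes with a mean of at least 5 FPKM in DE, 99.6%, 99.5%, 99% and 98.6% had a smaller gap between these libraries. VEGFA, ADM, SLC2A1, CA9 and HIF1A differed by at most 1.20-fold. Among other HIF targets at this level, 20 of 23 were higher in DE replicate 1, and 7 were so by over 1.5-fold, beside 43.1% and 1.55% of all such genes. The widest gap noticed was that of ERO1A, an oxidase of the endoplasmic reticulum, at 36.82 and 3.20 FPKM, a gene chosen here after its values were seen. The mesenchymal collagen COL1A1 (123 and 21.7 CPM) and the VEGF receptor KDR (79.9 and 43.3 CPM) were higher in the same library. Their part in the gap was not tested.

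Of 40 other HIF targets listed, 38 were in the file and tested. Into DE 27 rose and 4 fell, beside 30.8% and 23% of all genes tested. Into AFE 7 rose and 19 fell, beside 17.9% and 17.4%, and into LPO 28 rose and 3 fell, beside 30.2% and 29.6%. The list's median log2 changes were 1.5 (1.44 with 2 genes absent from PSC taken at their bound), -0.63 and 1.73, beside 0.08, 0.00 and 0.09 for all genes. Against PSC, 34 were higher in LPO and 3 lower, beside 41.5% and 28.8% of all genes, with a median of 3.21 (3.20 with bounds) beside 0.49. Of the 38, 28 (73.7%) had their highest mean in LPO and 2 in PSC, compared with 38.4% and 26.5% of all genes. Without DE replicate 1 the counts into DE were 23 and 3, and without AFE replicate 2 those into AFE were 4 and 12. Without PSC replicate 1, 2 targets fell into DE.

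**Figure D3:**
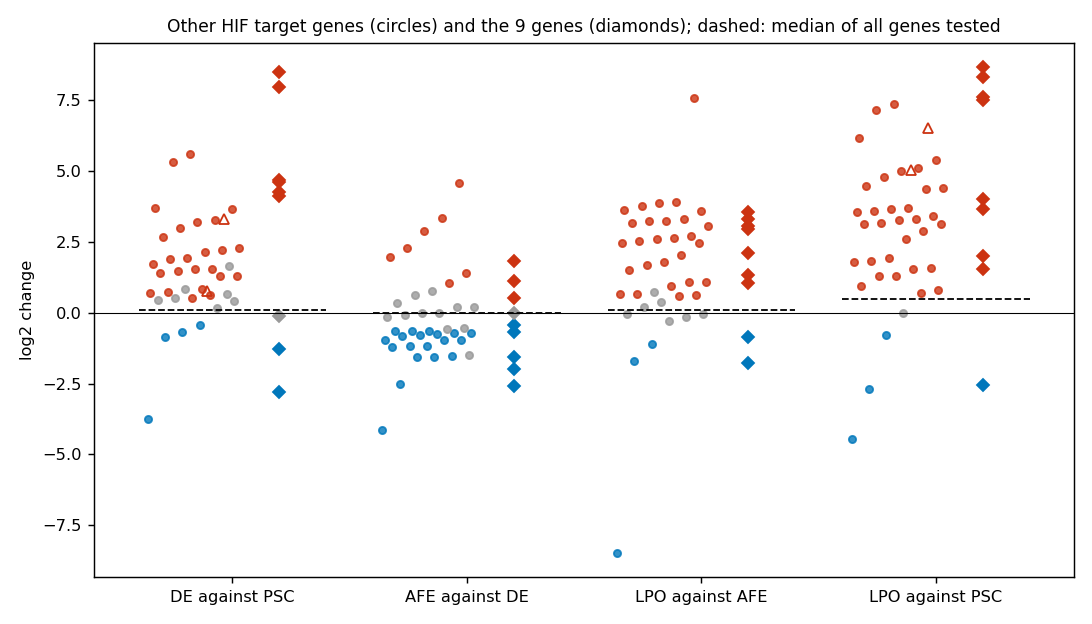
Log2 change (y axis) of 38 other HIF target genes (circles) and of the 9 genes (diamonds) in 4 comparisons, coloured red for called higher, blue for called lower and grey for not called; open triangles are genes at 0 in PSC, drawn at their lower bound, and dashed lines are the median of all genes tested. In LPO against PSC 34 targets lie above 0 as calls and 3 below, CA12, EPO and HILPDA.

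Among targets reaching 5 FPKM, the largest rises into DE were those of 3 metabolic and matrix genes. The lactate exporter SLC16A3 rose 48.5-fold (17.5 to 850.2 CPM, adjusted p = 6.1e-07), the glycolytic activator PFKFB3 39.6-fold (adjusted p = 3.7e-06), and the collagen prolyl hydroxylase P4HA1 13.0-fold (adjusted p = 9.9e-07). Into AFE the collagen lysyl hydroxylase PLOD2 (2.86-fold, adjusted p = 1.6e-05) and the ankyrin-repeat gene ANKRD37 (2.92-fold, adjusted p = 0.00032) fell, and so did ERO1A (17.3-fold, adjusted p = 0.013), whose 2 DE libraries lay far apart. Into LPO the oxidase ERO1A (191-fold, 6.37 to 1219 CPM, adjusted p = 0.00053), the matrix cross-linker LOX (15.0-fold, adjusted p = 3.2e-06) and the glycogen regulator PPP1R3C (14.4-fold, adjusted p = 1e-06) rose. From PSC to LPO the largest rises by the same rule were those of TMEM45A, a membrane protein (at least 91.6-fold against the floor of 3 read pairs per library, adjusted p = 1.1e-05), PFKFB3 (162-fold, adjusted p = 3.8e-07) and the circadian repressor BHLHE40 (140-fold, adjusted p = 6.8e-06).

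A few targets fell where most of the list did not. CA12, the other surface carbonic anhydrase known as a HIF target, fell from 14.8 ± 2.44 CPM in PSC to 1.09 ± 0.0962 in DE (13.6-fold, adjusted p = 6.9e-05) and was 6.50-fold lower in LPO than in PSC (adjusted p = 0.00019). It fell again into AFE (5.67-fold, adjusted p = 0.0024), where CA9 rose, and rose into LPO (0.191 to 2.28 CPM, adjusted p = 0.00012), where CA9 fell. In AFE CA12 lay near the floor (0.02 and 0.05 FPKM), so its folds against AFE are imprecise. It stayed at or below 0.74 FPKM in every library after PSC. HILPDA, a lipid-droplet protein, had 20.11 and 14.94 FPKM in PSC and was lower in DE (1.63-fold, adjusted p = 0.011). In LPO it had 13.15 and 13.68 FPKM and was called lower than in PSC on TMM-scaled counts (adjusted p = 0.0045); limma on FPKM with a pseudocount of 1 called only 1 of the 38 targets lower there, in place of 3. The iron importer TFRC fell 1.35-fold into DE (adjusted p = 0.012) and rose 3.48-fold into LPO (adjusted p = 5e-06). The secreted lipase inhibitor ANGPTL4 rose 23.8-fold into AFE (adjusted p = 2.2e-05) and fell 3.27-fold into LPO (adjusted p = 0.00054). EPO, the red-cell hormone and the first known HIF target, was also highest in AFE, at 9.58 CPM. It held 1 read pair over both LPO libraries, and AFE exceeded LPO by a ratio of 382 (95% counting interval 68 to 15100, adjusted p = 0.00012).

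Among the other genes of oxygen sensing and HIF control, 18 of 22 were in the file. Into DE 9 rose and 6 fell (30.8% and 23% of all genes), into AFE 3 and 5 (17.9% and 17.4%), into LPO 8 and 8 (30.2% and 29.6%), and from PSC to LPO 10 and 6 (41.5% and 28.8%). The medians were 0.41, -0.02, -0.01 and 0.65, beside 0.08, 0.00, 0.09 and 0.49 for all genes. The HIF partner ARNT stood at 4.42, 5.57 and 5.53 mean FPKM in PSC, DE and AFE and at 33.8 in LPO (4.34-fold over AFE in the test, adjusted p = 8.3e-06), a step like that of HIF1A. The coactivator CREBBP rose 4.40-fold into LPO (adjusted p = 4.7e-06), and HIF3A, an alpha subunit with inhibitory forms, rose from 0.575 to 12.9 mean FPKM (15.9-fold in the test, adjusted p = 1.3e-05).

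The sensors did not share 1 pattern. EGLN1, the main prolyl hydroxylase, had 7.73 and 8.16 FPKM in PSC, 27.17 and 17.96 in DE, 12.47 and 10.99 in AFE, and 45.3 and 41.79 in LPO. It followed VEGFA, with a 2.91-fold rise into DE (adjusted p = 0.00024), whereas EGLN3 fell there. HIF1AN, the asparaginyl hydroxylase that blocks coactivator binding, was highest in PSC (12.91 and 15.12 FPKM) and fell 2.48-fold into DE (adjusted p = 0.00084). After that it was not called at either step. CITED2, a competitor for HIF coactivators, peaked in DE, with an 8.27-fold rise (adjusted p = 1.7e-06) and a 2.87-fold fall into AFE (adjusted p = 9.8e-05). Parts of the VHL ligase fell from AFE to LPO, the adaptor ELOB 5.03-fold (adjusted p = 4.7e-07) and the RING subunit RBX1 3.22-fold (adjusted p = 3.3e-06). Its part ELOC fell 1.69-fold (adjusted p = 0.008), but its part CUL2 was not called (1.08-fold higher, adjusted p = 0.62). VHL itself and EGLN2 were on the list, but no entry was matched to either symbol.

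**Figure D4:**
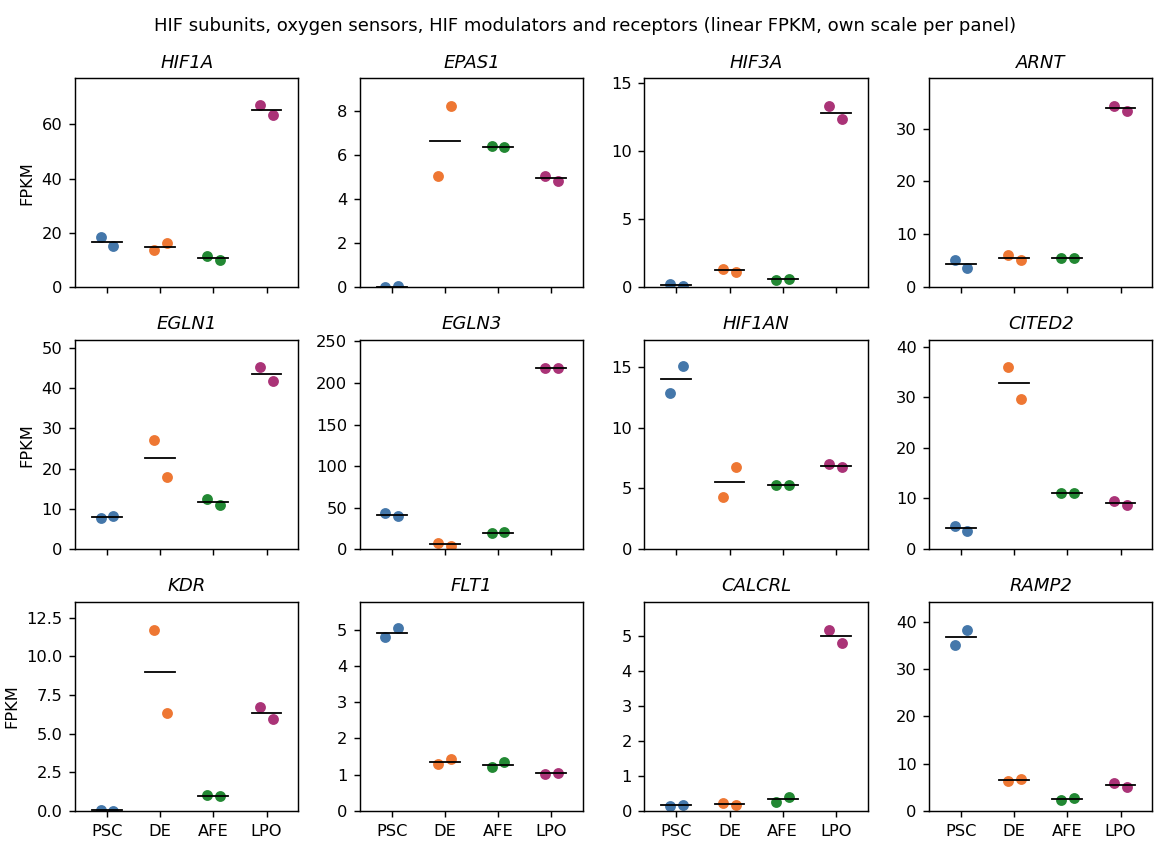
FPKM (linear axis from 0, a separate scale in each panel) of HIF subunits, oxygen sensors, HIF modulators and receptors for VEGFA and ADM in each of the 8 libraries; points are libraries and the black bar is their mean. HIF1A, ARNT, HIF3A, EGLN1, EGLN3 and CALCRL are highest in LPO, whereas HIF1AN, FLT1 and RAMP2 are highest in PSC.

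The receptors for the 2 ligands were not uniformly present where the ligand was high. KDR, the signalling receptor of VEGFA, had 0.09 and 0 FPKM in PSC, 11.69 and 6.33 in DE, 1.02 and 0.96 in AFE, and 6.75 and 5.94 in LPO. Its 8.80-fold fall into AFE (adjusted p = 0.0017) and 4.55-fold rise into LPO (adjusted p = 0.0039) went with the direction of the ligand. The co-receptor NRP1 also fell 7.40-fold into AFE (adjusted p = 0.00011) and rose 3.13-fold into LPO (adjusted p = 0.00055). The related co-receptor NRP2 went the opposite way at both steps, with an 8.77-fold rise into AFE (adjusted p = 0.00014) and a 2.08-fold fall into LPO (adjusted p = 0.0096). FLT1, a VEGF receptor that can act as a decoy, was instead highest in PSC, at 4.8 and 5.04 FPKM, and stood at 1.03 and 1.05 FPKM in LPO (6.27-fold lower, adjusted p = 1.1e-06). KDR is also an endothelial marker. Of the other 7 on that list, none was at 0 in both LPO libraries: TIE1 had 13.9 and 13.8 CPM, PECAM1 3.45 and 4.58, ERG 3.33 and 4.1, and CDH5 0.337 and 0.592. In AFE the same 4 had 13.0 and 15.1, 4.59 and 4.84, 0.131 and 0.150, and 2.02 and 2.08 CPM. Their part in the level of KDR was not tested.

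For ADM, the receptor CALCRL was at 0.13 to 0.40 FPKM in all PSC, DE and AFE libraries and at 5.18 and 4.81 FPKM in LPO (10.7-fold over AFE in the test, adjusted p = 2.5e-05). Its partner RAMP2, which makes CALCRL a receptor for ADM, was highest in PSC (35.23 and 38.39 FPKM) and 8.81-fold lower in LPO (adjusted p = 1.6e-06), where it had 5.91 and 5.16 FPKM. Step by step, RAMP2 fell 5.45-fold into DE (adjusted p = 1.3e-05) and 2.49-fold into AFE (adjusted p = 9e-04). It then rose 1.54-fold into LPO (adjusted p = 0.016), as ADM and CALCRL did. The related RAMP3 had mean FPKM of 0.36, 0.995, 1.07 and 2.045 in PSC, DE, AFE and LPO, without a call from AFE to LPO (adjusted p = 0.21). The scavenger receptor ACKR3, which also binds ADM, rose 6.79-fold into LPO (adjusted p = 0.00075), to 51.8 mean FPKM. DE combined 39.14 and 35.44 FPKM of ADM with little CALCRL transcript (0.24 and 0.17 FPKM), whereas LPO combined 83.06 and 82.86 FPKM of ADM with 5.18 and 4.81 of CALCRL.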

How the data were processed

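Poly(A) RNA of 8 pig libraries (4 stages, 2 each) was sequenced in pairs from stranded libraries, per the labels' protocols. Tools named in the submitters' processing notes, with no roles, are StringTie 2.1.6, HISAT2 2.2.1, cutadapt 1.9, edgeR and DESeq2. No source used here names the genome build. The deposited expected counts (estimated counts per gene, whole numbers) and the FPKM values computed by the authors were used as they stand. Columns headed EPSC and Organoid were matched to PSC and LPO by the labels. Symbols were those of the table, with 130 filled in from a reference list.

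Counts passing filterByExpr were TMM-scaled and fitted over all 8 libraries with stage as group (edgeR 4.0.16, R 4.3.3, 4 residual degrees of freedom). The fit was tried on simulated counts for DE against PSC, with the same spread for every gene. There it recovered 88% of log2 changes of 1 and 100% of those of 3. That simulation held neither unequal spread between stages nor the shift of scale in LPO. Alternatives used limma 3.58.1, DESeq2 1.42.0 and TPM (FPKM rescaled to 1e6 per library). Figures used Python 3.11.15 with matplotlib 3.10.9. Named besides the 9 members are up to 3 called genes per list, comparison and direction with the largest change among those reaching 5 FPKM, and a fixed set of partners (EGLN1, ARNT, HIF1AN, CALCRL, RAMP2, KDR, FLT1, BNIP3L, CA12). That set also held VHL and SLC2A3, for which no entry was matched. Other named genes were chosen after their values were seen. Members and lists were chosen with earlier results of these data known. None of the 9 overlaps another gene in the table. Depth was about 9001093 to 16891567 read pairs per library, and counting intervals and floors cover counting error only.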

Additional observations from a re-analysis of the deposited data

How the results depend on the processing

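Over 19 alternatives, 659 of 684 values for single members kept their direction and side of the threshold. Turns of sign were confined to uncalled changes and to EPAS1: HIF1A in DE against PSC (-0.28 to 0.01 with a library left out, the last without PSC replicate 1), EPAS1 in AFE against DE (0.03 with the replicate block, -0.31 to 0.37 with a library left out, among them 0.37 without DE replicate 2 and 0.00 without AFE replicate 2) and EPAS1 in LPO against AFE (0.05 with TPM). The members called lower in LPO against AFE numbered 1 in place of 2 with DESeq2 size factors, library totals, the 3 limma fits on FPKM and TPM, and 1 to 2 with a library left out. In AFE against DE, leaving out a library gave 1 to 3 members higher (3 with all), 2248 to 4030 genes higher (3467), and 4 to 9 and 12 to 22 other HIF targets higher and lower (7 and 19). In DE against PSC it gave 2 to 4 other targets lower (4 with all). Limma on log2 FPKM called 8969 (pseudocount 1), 8801 (0.1) and 9057 (no filter) genes higher in LPO against AFE, compared with 5842, and TPM called 10802 higher and 3122 lower (5732). In LPO against PSC, limma on FPKM with pseudocount 1 called 1 other target lower in place of 3, with and without the filter. The causes were not tested.

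Same-numbered libraries showed no broad shared deviation: their deviations correlated at -0.0136 to 0.00782 between stages across 19346 genes. Whether they came from paired cultures is not known here. With the replicate number as a block, 5644 genes rose and 4115 fell in DE against PSC (5962 and 4453 without), 3077 and 3060 in AFE against DE, 5278 and 5510 in LPO against AFE, and 7314 and 5282 in LPO against PSC. The counts of members called were the same. A lone library left in a stage was assumed to vary like the other stages. Depth limits EPAS1 and ADM in PSC.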

Other observations

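Of all genes tested, 30.8% rose and 23% fell into DE, 17.9% and 17.4% into AFE, and 30.2% and 29.6% into LPO. Beside these shares, of 9 tested glucose transporters besides SLC2A1, 3 rose and 1 fell into DE, 1 rose and 3 fell into AFE, and 6 rose and 1 fell into LPO. The 6 include SLC2A12 (4.61-fold, edgeR adjusted p = 4.3e-05) and the fructose transporter SLC2A5 (2.24-fold, 147.3 to 329.4 CPM, adjusted p = 0.0040). Of 11 tested carbonic anhydrases besides CA9, 3 rose and 1 fell into DE, 5 rose and 3 fell into AFE, and 3 rose and 4 fell into LPO; the counts into LPO and the rises into DE lay near the shares of all genes. The most abundant of them, the membrane enzyme CA14, peaked in AFE at 77.44 and 81.31 FPKM, with 25.1 to 29.1 FPKM in every other library (3.24-fold higher than DE, adjusted p = 9.7e-06, and 4.01-fold lower in LPO, adjusted p = 8.2e-07). The relative NDRG2 rose at each step, as NDRG1 did (2.52-fold, 1.84-fold and 1.55-fold, adjusted p = 3.5e-05, 0.00066 and 0.0013).

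Of 7 mitophagy genes besides BNIP3, 5 rose and 2 fell into DE, 2 rose and 0 fell into AFE, and 3 rose and 2 fell into LPO, beside the same shares of all genes. BNIP3L, the closest relative, rose 1.60-fold into DE (adjusted p = 0.00031) and 2.09-fold into LPO (adjusted p = 1.8e-05), without a called fall at AFE (adjusted p = 0.20). The kinase PINK1 rose 3.57-fold into LPO (adjusted p = 0.00033), while the inner-membrane receptor PHB2 fell 3.96-fold (adjusted p = 2e-07). Of 97 tested genes that the deposited table assigns to HIF-1 signalling besides the members, 52 rose and 20 fell into DE, 19 rose and 29 fell into AFE, and 42 rose and 26 fell into LPO, with medians of 0.80, -0.05 and 0.50. The medians of all genes were 0.08, 0.00 and 0.09. The shares of this list that fell into DE, rose into AFE and fell into LPO lay near those of all genes.

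By Pearson r of log2 CPM over the 8 libraries, which fall into 4 stages and are not independent points, the genes most like VEGFA among 8935 were SMURF1 (0.998), BMI1 (0.998) and UNC5B (0.997). Those most like CA9 were ADSL (0.999), MRPL2 (0.998) and SPIDR (0.998).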
